A study of Nicotiana tabacum with 15 samples.

Results

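Ethylene response factor (ERF) genes annotated to ERF1/2 were followed in tobacco roots through 3 gene models, Nitab4.5_0000734g0020, Nitab4.5_0002683g0020 and Nitab4.5_0010541g0010, of the 69500 gene models in the deposited table. They were taken by their IDs, which the study had placed under ERF1/2 in its picture of hormone signalling among genes it counted as overdominant, with a hybrid level outside that of both parents, in these same libraries, so their hybrid-parent differences are not independent evidence of a direction. The groups were the F1 hybrid GJ with G70 as mother, the F1 hybrid KJ with K326 as mother, the 2 mothers G (G70) and K (K326), and J (Jiucaiping No.2, labelled JCP), which fathered GJ as well as KJ. Seedling root RNA was sequenced in 3 libraries per genotype, 15 in all, and the study sampled seedlings with 6 true leaves grown by the floating method in a greenhouse. Both hybrids share J, so by pedigree they differ in the mother. The labels and methods name no batch, so any other difference between their libraries cannot be told apart from the cross. The sources do not say whether a library was a single plant or a pool. The p-values below set differences between genotypes against the spread between these libraries, which may be technical.

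The label titles name leaf while the tissue entry and the study give young root. The table pairs no ID with a gene name, so the tissue was not checked against marker genes. The study calls its values FPKM, reads scaled to the length of the gene and to the mapped reads of the library, which can be compared between genes because they are per length. The summed FPKM of a library lay between 801594 and 827438, so FPKM cannot be told apart here from TPM of an incomplete set of features. Fold changes compare the same gene between libraries on either scale. Read counts per gene are not in the table, so the counting error of a value is unknown. The libraries G replicate 1, J replicate 2 and K replicate 2 had the 3 highest median-of-ratios size factors, at 1.18, 1.10 and 1.18, where the other 12 lay between 0.834 and 1.07. At the low end stood KJ replicates 1, 2 and 3, at 0.834, 0.895 and 0.909. The set of 3 was drawn from the high end only, and KJ replicate 1 was left out only by itself. Values without the set are given beside the results whose call they changed.

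Ethylene is perceived by ETR receptors, which in its absence keep the signal off through the kinase CTR1. With ethylene bound, the signal passes EIN2 to EIN3, a transcription factor that switches on ERF1, and EBF1/2 are F-box proteins that mark EIN3 for breakdown. ERF proteins bind GCC-box sequences through their AP2/ERF domain and act on genes of defence, stress response and root growth, roles known mostly from Arabidopsis.

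In short, Nitab4.5_0000734g0020 and Nitab4.5_0002683g0020 had their lowest mean in GJ and their highest means in KJ and G, with every GJ library below every KJ library. The KJ values overlapped those of J for both genes and those of K for Nitab4.5_0000734g0020. Nitab4.5_0010541g0010 was low in all genotypes and had overlapping values in the hybrids. Neither hybrid was called different from the other for any of the 3 genes.

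Nitab4.5_0000734g0020 had 7.71, 4.9 and 5.68 FPKM in GJ replicates 1, 2 and 3, against 48.04, 17.95 and 16.1 FPKM in KJ replicates 1, 2 and 3. The parents had 17.85, 32.81 and 51.5 FPKM in G, 9.6, 8.01 and 18.15 FPKM in K and 18.1, 7.48 and 19.05 FPKM in J. The GJ libraries formed the tightest and lowest group, KJ replicate 1 stood alone above the other KJ libraries, and the G and KJ ranges overlapped. The means were 6.10 ± 1.45 FPKM in GJ, 27.4 ± 17.9 in KJ, 34.1 ± 16.9 in G, 11.9 ± 5.45 in K and 14.9 ± 6.42 in J (SD over 3 libraries). From lowest to highest the order was GJ, K, J, KJ and G, and no pair of neighbours in this order differed beyond the test described below. Among the 37232 genes tested, this level stood above 48.2% of genes in GJ and above 84.4% in KJ.

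Nitab4.5_0002683g0020 had 9.71, 6.99 and 6.32 FPKM in GJ replicates 1, 2 and 3, against 38.41, 17.58 and 14.16 FPKM in KJ replicates 1, 2 and 3. The parents had 11.63, 23.1 and 23.11 FPKM in G, 10.22, 7.85 and 12.42 FPKM in K and 17.54, 10.99 and 15.57 FPKM in J. Every GJ library lay below every G and J library, while the GJ and K ranges overlapped. The means were 7.67 ± 1.80 FPKM in GJ, 23.4 ± 13.1 in KJ, 19.3 ± 6.63 in G, 10.2 ± 2.29 in K and 14.7 ± 3.36 in J (SD over 3 libraries). The order from the lowest was GJ, K, J, G and KJ, which again had no called difference between neighbours.

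Nitab4.5_0010541g0010 was the least abundant of the 3, with 3.2, 2.34 and 2.61 FPKM in GJ, against 4.03, 2.8 and 2.13 FPKM in KJ. The parents had 1.4, 0.69 and 0.91 FPKM in G, 2.03, 1.77 and 1.78 FPKM in K and 1.02, 2.35 and 0.71 FPKM in J. The GJ range lay inside the KJ range, and J replicate 2 reached the level of the hybrids. The means were 2.72 ± 0.440 FPKM in GJ, 2.99 ± 0.964 in KJ, 1.00 ± 0.363 in G, 1.86 ± 0.147 in K and 1.36 ± 0.871 in J (SD over 3 libraries). The order from the lowest was G, J, K, GJ and KJ, the reverse of Nitab4.5_0000734g0020 in that G was lowest and not highest, and no neighbours differed.

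**Figure D1:**
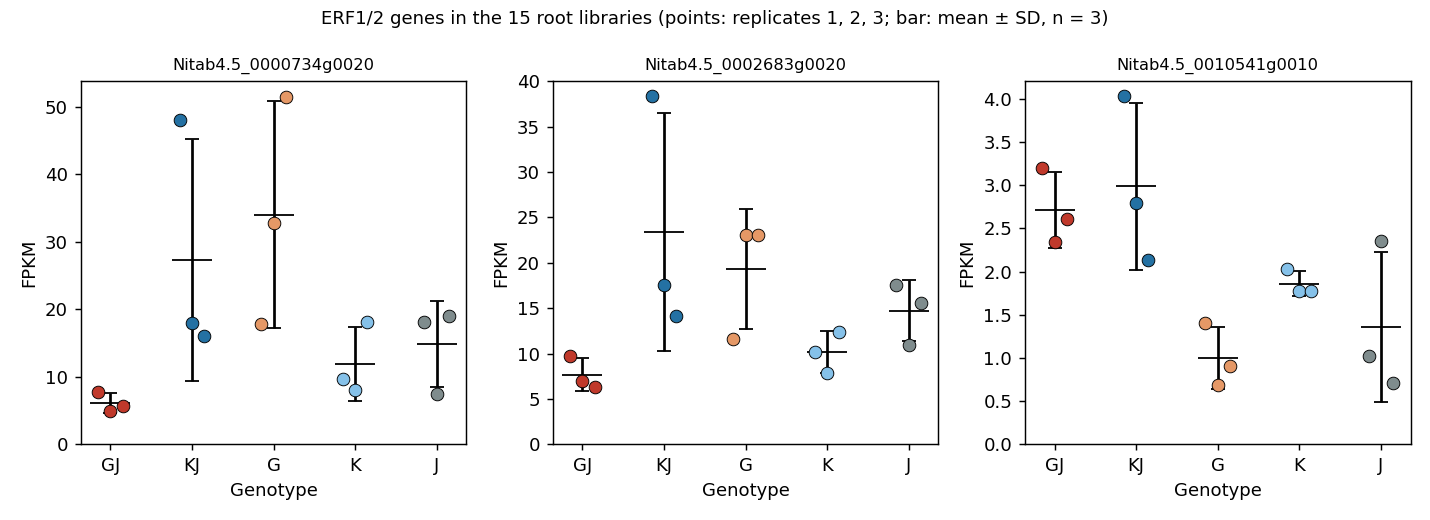
FPKM of the 3 ERF1/2 genes (vertical axis, a scale of its own in each panel, from 0) in the genotypes GJ, KJ, G, K and J, where points are replicates 1, 2 and 3 from left to right and bars are the mean ± SD (n = 3). In the left and middle panels the 3 GJ points lie below the 3 KJ points, and KJ replicate 1 is the highest KJ point in all 3 panels.

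To compare the hybrids, limma was fitted to log2(FPKM + 1) in all 15 libraries. Genes that reached 1 FPKM in 3 or more libraries were tested, and all 3 ERF1/2 genes did. To be called, a gene needed an adjusted p (Benjamini-Hochberg) no larger than 0.05 together with a log2 fold change of 1 or more in either direction. Nitab4.5_0000734g0020 had a log2 fold change of -1.84 ± 0.48 (SE) in GJ over KJ, with a 95% interval of -2.89 to -0.80 and an adjusted p of 0.0976. Nitab4.5_0002683g0020 had a log2 fold change of -1.38 ± 0.35 (SE), with an interval of -2.14 to -0.63 and an adjusted p of 0.0891 in the same limma test. Both were past the fold limit and short of the adjusted p. Nitab4.5_0010541g0010 had -0.08 ± 0.24 (SE), with an interval of -0.60 to 0.44 and an adjusted p of 0.868. Of the 3 genes 0 were called and 2 had an unadjusted p under 0.05, at 0.00224 and 0.00172, where 0.438% of all tested genes were called in either direction, 0.191% were called lower in GJ and 20.6% had an unadjusted p under 0.05. The median tested gene had a log2 fold change of 0.14 in GJ over KJ, so relative to it the 3 differences were -1.98, -1.52 and -0.22.

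An exact permutation test of the 3 GJ against the 3 KJ libraries (two-sided, 20 splits) gave p = 0.1 for Nitab4.5_0000734g0020 and for Nitab4.5_0002683g0020, the smallest this design allows, and p = 0.8 for Nitab4.5_0010541g0010. All GJ libraries lay below all KJ libraries in 2 of the 3 genes and in 7.28% of the genes tested, while in 23.8% they lay above. These shares are of FPKM without size-factor scaling, and the KJ libraries had the lowest size factors. How far scaling would move the shares was not tested. An unadjusted p smaller than that of Nitab4.5_0000734g0020 was found for 2.29% of the tested genes in this contrast, and one smaller than that of Nitab4.5_0002683g0020 for 1.92%. KJ replicate 1, the library of lowest size factor, carried part of the size. Without it the log2 fold changes were -1.36 for Nitab4.5_0000734g0020, -0.97 for Nitab4.5_0002683g0020 and 0.10 for Nitab4.5_0010541g0010, whose sign turned. Without G replicate 1, J replicate 2 and K replicate 2, which leaves all hybrid libraries in, the first and the second of these genes passed the limma test with the same fold changes and adjusted p of 0.0438 and 0.0484. This took out the lowest G, J and K library of both genes. The hybrid values stayed the same, so the p moved only through the fitted spread and the adjustment.

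**Figure D2:**
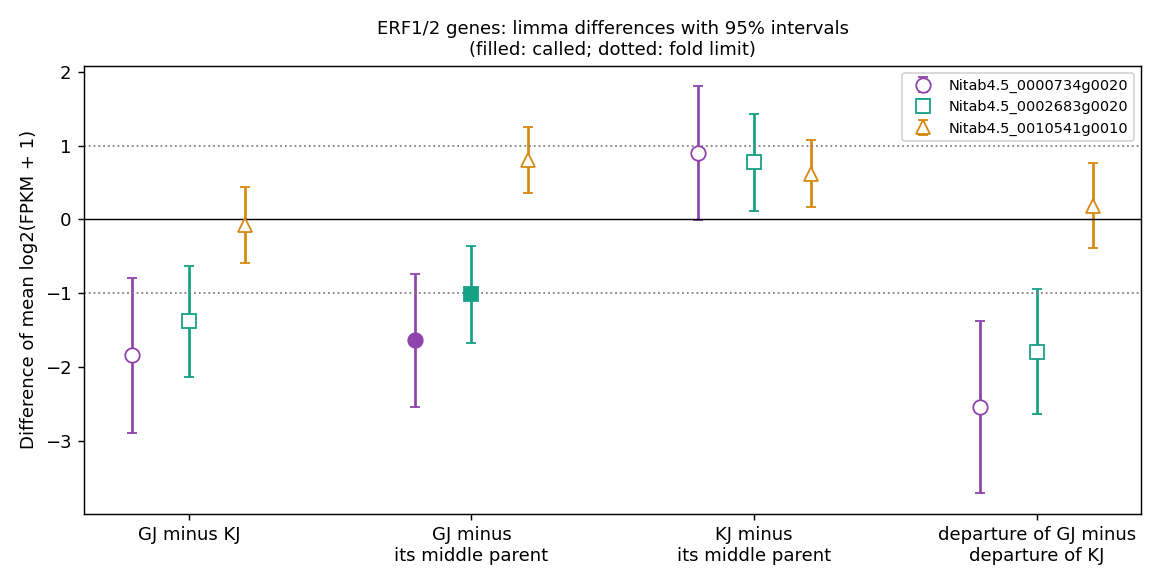
Differences of mean log2(FPKM + 1) with 95% intervals (vertical axis) for the 3 ERF1/2 genes in 4 comparisons, where filled markers passed the adjusted p and the fold limit and dotted lines mark a log2 difference of 1. Nitab4.5_0000734g0020 at -1.84 and Nitab4.5_0002683g0020 at -1.38 lie below the lower dotted line in GJ minus KJ with open markers, and their filled markers stand in GJ minus its middle parent.

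Each hybrid was next set against its parents, a direction for which the study had picked the genes. In GJ, Nitab4.5_0000734g0020 and Nitab4.5_0002683g0020 fell against the middle parent, which here is the average of the log2 values of mother and father. The log2 fold changes were -1.64 ± 0.42 (SE, limma adjusted p = 0.0185) and -1.02 ± 0.30 (SE, adjusted p = 0.0337). Back on the FPKM scale the middle parent of GJ was at 20.8 FPKM for the first and at 16.3 FPKM for the second, above every GJ library. Thus 2 of the 3 genes were called lower, where 2.16% of the tested genes were called lower in this comparison, and 0 were called higher, where 2.4% were. Against single parents, Nitab4.5_0000734g0020 fell by 2.20 on the log2 scale in GJ relative to G (limma adjusted p = 0.0135), and Nitab4.5_0002683g0020 fell by 1.18 (adjusted p = 0.0421), in a comparison where 2.44% of genes were called lower. The call of Nitab4.5_0002683g0020 against G ended without any 1 of 9 libraries, which were GJ replicates 1, 2 and 3, G replicates 2 and 3, J replicates 1 and 3, K replicate 1 and KJ replicate 2, at adjusted p of 0.0518 to 0.132, and also with no filter on low values (0.0579), median-of-ratios scaling (0.0795), quantile normalization (0.0551) and a replicate block (0.0568), while that of Nitab4.5_0000734g0020 held in all 15 omissions. Relative to J their log2 fold changes were -1.08 and -0.85 with adjusted p of 0.153 and 0.123, and neither gene was called lower than J, where 1.76% of the genes were. Without G replicate 1, J replicate 2 and K replicate 2 Nitab4.5_0000734g0020 was called lower than J, at -1.48 (adjusted p = 0.0465). For Nitab4.5_0002683g0020, whose GJ libraries all lay below all G and J libraries as in 13.1% of the genes tested, the call against the middle parent ended without any 1 of GJ replicates 1, 2 and 3, G replicates 2 and 3 and J replicates 1 and 3, at log2 fold changes of -1.18 to -0.91, and with median-of-ratios scaling, at -0.94 (adjusted p = 0.0715). The call of Nitab4.5_0000734g0020 ended without any 1 of the GJ libraries, at adjusted p of 0.0508 to 0.0692.

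Nitab4.5_0010541g0010 stood higher in GJ than in the middle parent, with a log2 fold change of 0.81 ± 0.21 (SE), a limma adjusted p of 0.0188 and a middle parent of 1.12 FPKM. It passed the adjusted p and was short of the fold limit, which the added 1 makes hard to reach for a gene of such low FPKM. With 0.1 added in place of 1 the log2 fold change was 1.25 (adjusted p = 0.0198) and the gene was called, as it was without G replicate 1, J replicate 2 and K replicate 2, at 1.02 (adjusted p = 0.00357). Against G alone it had 0.90 (adjusted p = 0.0281), and it was called with 0.1 added, at 1.40 (adjusted p = 0.0299), and without G replicate 1, at 1.04 (adjusted p = 0.0320), or without all 3 of those libraries (adjusted p = 0.0112).

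In KJ the log2 fold changes against the middle parent were positive for all 3 genes, and 0 of 3 were called, where 4.18% of the tested genes were called higher and 6.61% lower. Nitab4.5_0000734g0020 had 0.90 ± 0.42 (SE, limma adjusted p = 0.0955), Nitab4.5_0002683g0020 0.77 ± 0.30 (SE, adjusted p = 0.0527) and Nitab4.5_0010541g0010 0.62 ± 0.21 (SE, adjusted p = 0.0278). An unadjusted p under 0.05 was found for 2 of the 3 and for 53.1% of all tested genes, near the background. For none of the 3 genes did every KJ library lie above every K and J library. The middle parent of KJ was at 12.5, 12.0 and 1.54 FPKM, below every KJ library. The median tested gene was at -0.24 in this comparison, so relative to it the 3 values were 1.14, 1.01 and 0.86. Against K alone, Nitab4.5_0002683g0020 rose with a log2 fold change of 1.02 ± 0.35 (SE, adjusted p = 0.0396), where 3.19% of the tested genes were called higher. KJ replicate 1 weighed on these values too, as without it this fold change was 0.61 (adjusted p = 0.156) and those against the middle parent were 0.42, 0.36 and 0.44. The call against K also ended without K replicate 1 (adjusted p = 0.0783), without K replicate 2 (0.145), and, just above the threshold at 0.0503 to 0.0518, without GJ replicate 2, KJ replicate 2 or J replicate 3. It ended as well when G replicate 1, K replicate 2 and J replicate 2 were all left out, at 0.86 (adjusted p = 0.0921), with no filter on low values (0.0552) and with a replicate block (0.0522). Without KJ replicate 3 Nitab4.5_0002683g0020 was called against the middle parent, at 1.05 (adjusted p = 0.0283). Against J 0 of 3 genes were called in KJ in a comparison with 12.1% called in either direction, and Nitab4.5_0010541g0010 came nearest with 0.79 (adjusted p = 0.0213), past the adjusted p and short of the fold limit. It was called against J with 0.1 added in place of 1, at 1.20 (adjusted p = 0.0236), with quantile normalization, at 1.06 (adjusted p = 0.00515), and without J replicate 2, at 1.07, both when that library alone was left out (adjusted p = 0.00462) and with G replicate 1 and K replicate 2 left out too (adjusted p = 0.00358).

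The departures of both hybrids from their middle parents were then compared in the same limma fit, which takes out the difference between the mothers G and K. Nitab4.5_0000734g0020 departed by -1.64 log2 units in GJ and by 0.90 in KJ, a difference of -2.54 ± 0.54 (SE, adjusted p = 0.0576). For Nitab4.5_0002683g0020 the difference was -1.79 ± 0.39 (SE, adjusted p = 0.0599) and for Nitab4.5_0010541g0010 0.18 ± 0.27 (SE, adjusted p = 0.707). All 3 GJ libraries below and all 3 KJ libraries above their middle parent was seen in the first and the second gene and in 1.25% of the genes tested, while the opposite was seen in none of the 3 and in 4.24%. These shares too are of FPKM without size-factor scaling. None of the 3 genes was called, with 0.508% of the tested genes called, and 2 of 3 had an unadjusted p under 0.05, at 4.42e-04 and 5.42e-04, as had 21.6% of all tested genes. G replicate 1, J replicate 2 and K replicate 2 were the lowest libraries of their genotypes for the first and the second gene. Without them both genes were called, at -2.63 (adjusted p = 0.0299) and -1.87 (adjusted p = 0.0377), with every hybrid value unchanged. Leaving out G replicate 1 alone was enough for both (adjusted p = 0.0301 and 0.0284), and leaving out K replicate 3 alone for the first (adjusted p = 0.0477).

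Among the parents 0 of the 3 genes were called in any pair, where 0.808% of genes were called between G and K, 0.943% between G and J and 0.416% between K and J. The widest of these gaps was that of Nitab4.5_0000734g0020 between G and K, a log2 fold change of 1.40 ± 0.48 (SE, limma adjusted p = 0.267). An unadjusted p under 0.05 was found between G and K for all 3 genes and for 11.5% of all tested genes. The log2 fold change of Nitab4.5_0010541g0010 had the other sign, with -0.53 in G over K (adjusted p = 0.419).

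Nitab4.5_0000734g0020 and Nitab4.5_0002683g0020 moved together over the 15 libraries, with Pearson r = 0.936 of log2(FPKM + 1). After the mean of each genotype was subtracted r was 0.920. Libraries of a genotype that were high for one gene thus tended to be high for the other. The order of the replicates was not the same for both genes in GJ and in J. These correlations are descriptions over libraries that share genotype and scale. The FPKM of the first gene divided by that of the second was between 0.701 and 0.899 in GJ, between 1.02 and 1.25 in KJ, between 1.42 and 2.23 in G, between 0.939 and 1.46 in K and between 0.681 and 1.22 in J. The ratio was thus under 1 in all GJ libraries and over 1 in all KJ and G libraries. Nitab4.5_0010541g0010 did not share this course, with r of -0.35 and -0.17 to the other two.

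**Figure D3:**
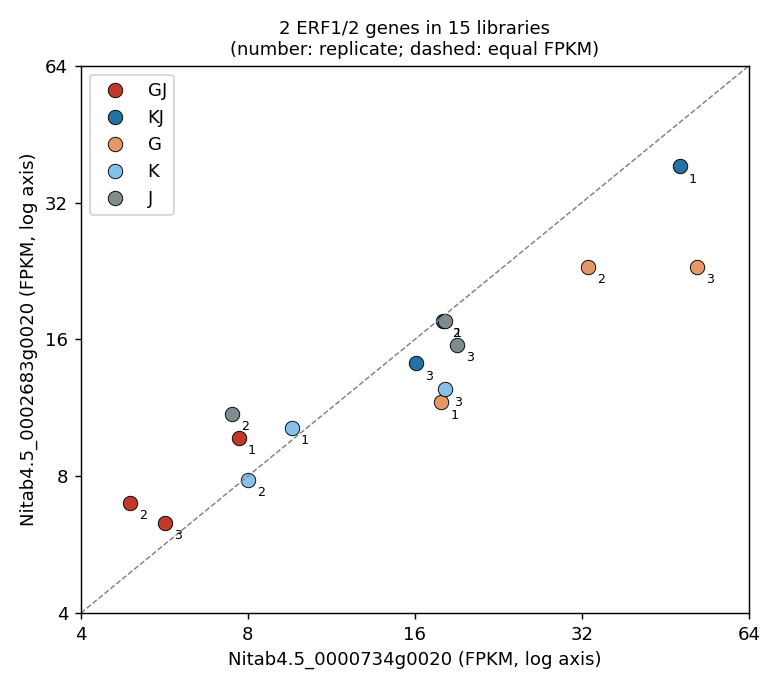
FPKM of Nitab4.5_0002683g0020 (vertical) against Nitab4.5_0000734g0020 (horizontal), both on log axes, in the 15 libraries coloured by genotype and numbered by replicate, with a dashed line at equal FPKM. The 3 GJ points lie at the lower left above the line, KJ replicate 1 and G replicates 2 and 3 at the upper right, and KJ replicate 2 and J replicate 1 cover each other at about 18 FPKM.

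The spread between replicates was wide for the pair. The residual SD of Nitab4.5_0000734g0020 was 0.656 on the log2 scale, larger than that of 93.7% of the tested genes, that of Nitab4.5_0002683g0020 was 0.468, larger than 85.6%, and that of Nitab4.5_0010541g0010 was 0.308, larger than 68.2%. In G, J and K the lowest library of both paired genes was G replicate 1, J replicate 2 and K replicate 2, the libraries with the highest size factors. Whether what sets these libraries apart has a part in the ERF1/2 values was not tested. Nitab4.5_0010541g0010 had its highest G value in G replicate 1 and its highest J value in J replicate 2.

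A further row of the ERF1/2 group in the study's picture, Nitab4.5_0009888g0030, moved with the pair over the libraries at a higher level. It had 31.4, 10.16 and 14.05 FPKM in GJ and 107.98, 53.5 and 38.8 FPKM in KJ, against 25.22, 67.62 and 91.77 FPKM in G, 22.29, 24.27 and 62.1 FPKM in K and 38.77, 15.28 and 37.27 FPKM in J. The GJ libraries were again all below the KJ libraries, with a log2 fold change of -1.81 ± 0.59 (SE, limma adjusted p = 0.143). Unlike the pair, this gene was not called in GJ against the middle parent (-1.19, limma adjusted p = 0.115) or against G (-1.65, adjusted p = 0.0805). Its r within genotypes was 0.934 with Nitab4.5_0000734g0020 and 0.876 with Nitab4.5_0002683g0020.

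The other genes that the study annotated to ethylene signalling, read by eye from its picture, were 4 ETR genes, 1 EIN3 gene and 3 EBF1/2 genes, and with Nitab4.5_0009888g0030 these made 9, all tested. They too were chosen by the study as overdominant in these libraries. Against the middle parent 3 of the 9 rose in GJ, 0 fell and 6 were not called, while 6 rose in KJ, 0 fell and 3 were not called. Of all tested genes, 2.4% were called higher and 2.16% lower in GJ, and 4.18% higher and 6.61% lower in KJ. The median log2 fold change of the 9 was 0.74 in GJ and 1.55 in KJ, beside -0.06 and -0.24 over all tested genes. Between GJ and KJ 0 of the 9 were called by limma, where 0.438% of all tested genes were. An unadjusted p under 0.05 was found for 5 of the 9 and for 20.6% of all tested genes. The median log2 fold change of the 9 was -0.91, beside 0.14 over all tested genes. Thus the receptor and F-box genes called in GJ, such as Nitab4.5_0000028g0350 (EBF1/2) with a log2 fold change of 1.67 (adjusted p = 0.00719) and Nitab4.5_0000342g0270 (ETR) with 1.02 (adjusted p = 0.0310), had the other sign than the paired ERF1/2 genes in the same libraries. In KJ Nitab4.5_0000028g0350 rose with 2.09 (adjusted p = 7.29e-04), the same sign as all 3 ERF1/2 genes.

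**Figure D4:**
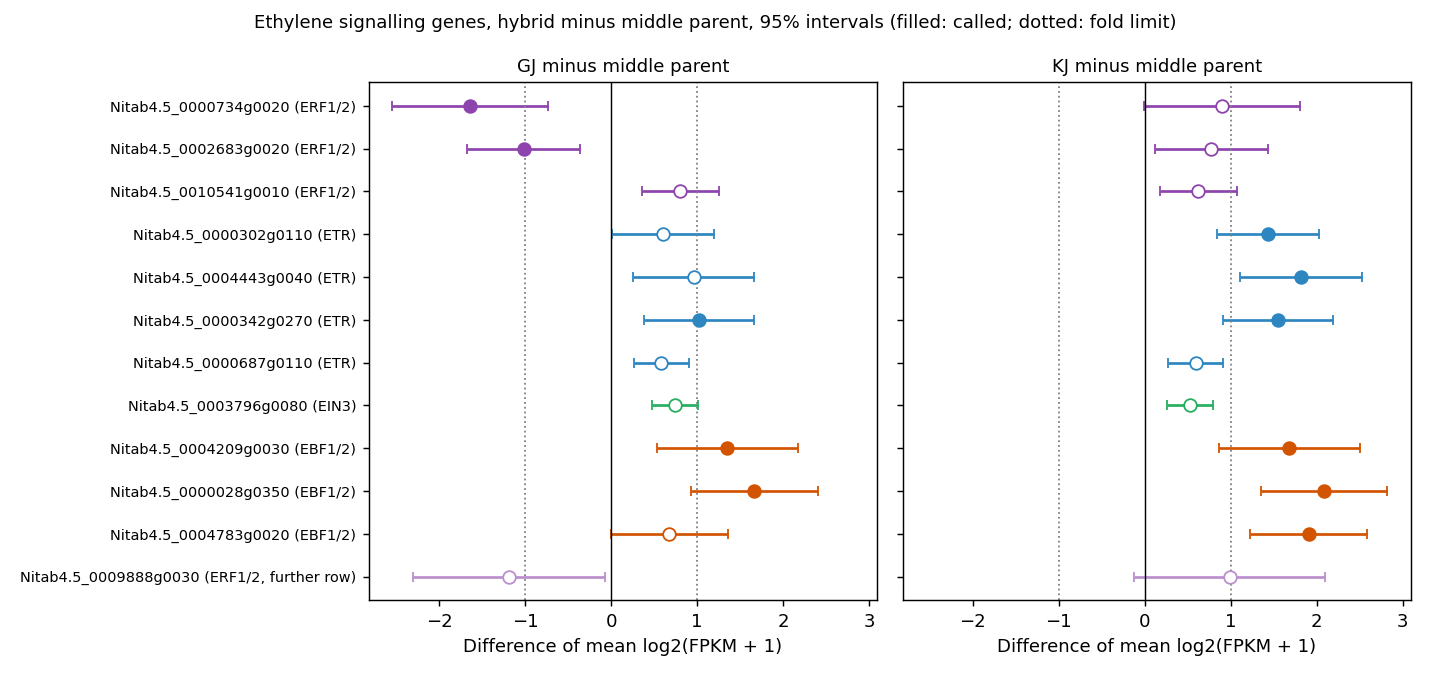
Differences of mean log2(FPKM + 1) with 95% intervals (horizontal axis) for 12 genes of ethylene signalling, GJ minus its middle parent on the left and KJ minus its middle parent on the right, with filled markers for called genes and dotted lines at the fold limit. On the left Nitab4.5_0000734g0020, Nitab4.5_0002683g0020 and Nitab4.5_0009888g0030 are the genes below 0, and on the right all 12 are above 0.

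Within genotypes the paired ERF1/2 genes ran against some of these genes and weakly with others. Taking deviations from genotype means over the 15 libraries, r was -0.71 and -0.65 with Nitab4.5_0000028g0350 (EBF1/2) for Nitab4.5_0000734g0020 and Nitab4.5_0002683g0020, -0.59 and -0.55 with Nitab4.5_0004209g0030 (EBF1/2), and -0.65 and -0.78 with Nitab4.5_0003796g0080 (EIN3). With Nitab4.5_0004783g0020, the remaining EBF1/2 gene, r was 0.13 and 0.04. With the 4 ETR genes r was positive throughout, between 0.18 and 0.39 for Nitab4.5_0000734g0020 and between 0.16 and 0.34 for Nitab4.5_0002683g0020. Nitab4.5_0000028g0350 had 16.48, 9.6 and 9.88 FPKM in G, and 8.38, 21.79 and 8.12 FPKM in J, so G replicate 1 and J replicate 2 were its highest libraries where they were the lowest for both paired ERF1/2 genes. In GJ this was not seen. There it had 56.61, 26.18 and 39.48 FPKM, and replicate 1 was the highest GJ library for it, for Nitab4.5_0004209g0030 and for both paired genes. For Nitab4.5_0010541g0010 the within-genotype r with the EBF1/2 genes was positive, at 0.46 with Nitab4.5_0000028g0350, 0.53 with Nitab4.5_0004209g0030 and 0.31 with Nitab4.5_0004783g0020.

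**Figure D5:**
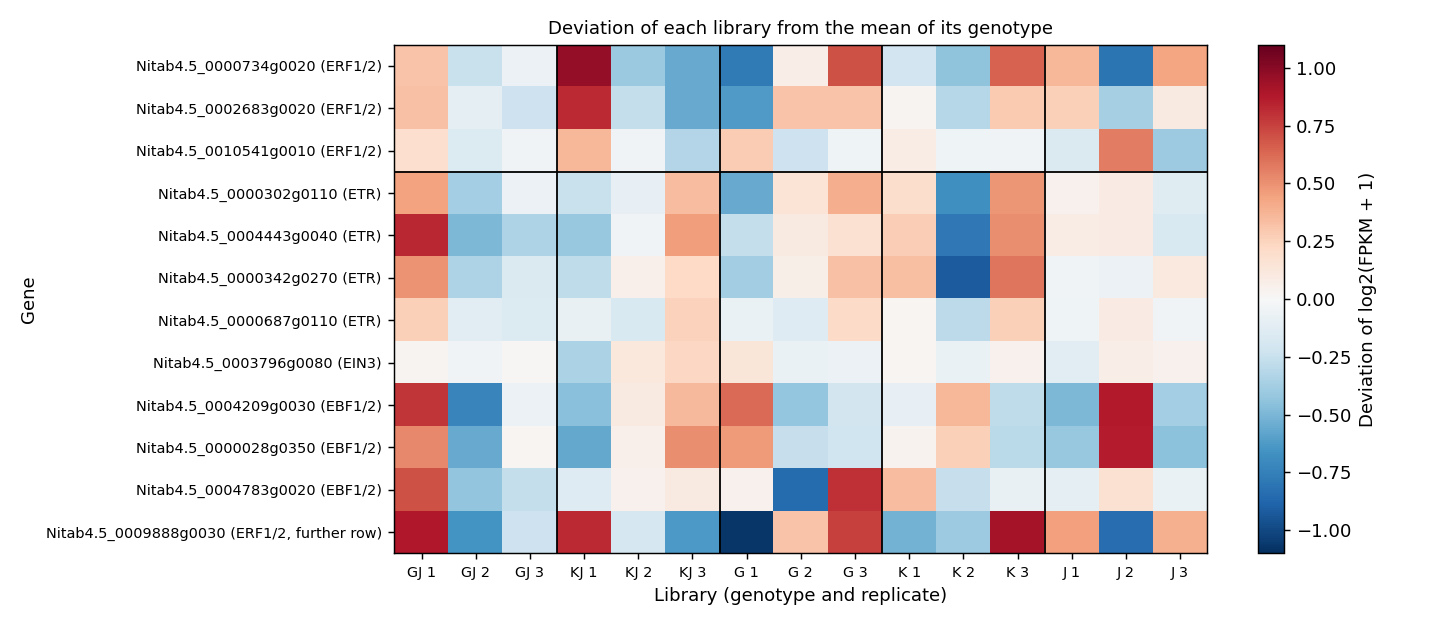
Deviation of log2(FPKM + 1) from the mean of the genotype (colour) for 12 ethylene signalling genes (rows, the 3 ERF1/2 genes above the horizontal line) in the 15 libraries (columns, genotype and replicate). KJ replicate 1 is red and G replicate 1 and J replicate 2 are blue for Nitab4.5_0000734g0020, Nitab4.5_0002683g0020 and Nitab4.5_0009888g0030, with the opposite colours for Nitab4.5_0004209g0030 and Nitab4.5_0000028g0350.

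Genes that share the first number of their ID with an ERF1/2 gene were described as well. Of the 16 gene models with the first number of Nitab4.5_0000734g0020, 7 were tested and 6 were listed at 0 in all libraries. Between GJ and KJ 0 were called by limma, where 0.438% of all tested genes were. Nitab4.5_0000734g0030, next in number to Nitab4.5_0000734g0020, had 23.98, 9.63 and 7.48 FPKM in GJ, against 101.49, 38.82 and 30.7 FPKM in KJ. Its log2 fold change in GJ over KJ was -1.95 ± 0.56 (SE, adjusted p = 0.119), and its r with Nitab4.5_0000734g0020 was 0.878. Nitab4.5_0000734g0010 had 16.03, 2.95 and 3.02 FPKM in GJ, which overlapped 31.56, 20.96 and 13.54 FPKM in KJ. Its log2 fold change in GJ over KJ was -1.75 ± 0.72 (SE, limma adjusted p = 0.207). Its r with Nitab4.5_0000734g0020 was 0.537, and 0.788 after the mean of each genotype was subtracted. Nitab4.5_0000734g0070 went the other way, with a log2 fold change of 0.87 in GJ over KJ (adjusted p = 0.304) and a fall of 1.42 in KJ relative to its middle parent (adjusted p = 0.0142). The remaining 3 tested genes of this number and the 4 that share the number of Nitab4.5_0002683g0020 had log2 fold changes of 0.0048 to 0.41 in GJ over KJ. The only other gene model with the number of Nitab4.5_0010541g0010 was listed at 0 in all libraries.

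The genes most like each ERF1/2 gene over the 15 libraries were taken by Pearson r of log2(FPKM + 1). Nitab4.5_0009037g0070 led the list for Nitab4.5_0000734g0020 with r = 0.953 and that for Nitab4.5_0002683g0020 with r = 0.949. Its mean was 17.9 ± 0.950 FPKM for GJ and 54.1 ± 31.6 FPKM for KJ (SD over 3 libraries), with a log2 fold change of -1.40 (limma adjusted p = 0.124). For the first of these ERF1/2 genes Nitab4.5_0000257g0090 (r = 0.947), Nitab4.5_0009888g0030 (0.929), Nitab4.5_0002532g0010 (0.915) and Nitab4.5_0000101g0070 (0.913) came next, and for the second Nitab4.5_0006695g0010 (0.902), Nitab4.5_0000092g0370 (0.901), Nitab4.5_0000257g0090 (0.899) and Nitab4.5_0001270g0090 (0.899). An r of at least 0.9 was reached by 6 and by 3 of 24778 genes, and the median r was -0.17 and -0.22. Closest to Nitab4.5_0010541g0010 were Nitab4.5_0005132g0090 (0.928), Nitab4.5_0006766g0010 (0.923), Nitab4.5_0024070g0010 (0.920), Nitab4.5_0025058g0010 (0.920) and Nitab4.5_0000451g0140 (0.919), among 16 of 37229 genes with r of at least 0.9. Of these, Nitab4.5_0000451g0140 was at 22.5 ± 10.1 FPKM in GJ and 31.8 ± 9.24 in KJ, against parental means of 4.21 ± 1.28 for G, 10.8 ± 1.96 for K and 9.55 ± 3.73 for J (SD, n = 3 each). It rose against the middle parent in both hybrids, with log2 fold changes of 1.63 in GJ and 1.55 in KJ (adjusted p = 0.00335 and 0.00134). Of all tested genes, 2.4% were called higher in GJ and 4.18% in KJ. The closest gene, Nitab4.5_0005132g0090, differed less between genotypes. Its means were 18.1 ± 2.02 FPKM in GJ, 21.0 ± 3.44 in KJ, 14.2 ± 1.64 in G, 17.3 ± 0.373 in K and 15.4 ± 3.38 in J.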

How the data were processed

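The deposited table of RNA-seq values, with 1 column for each of 15 root libraries (3 per genotype, 5 genotypes), was matched to the samples by its column names. Per the paper's methods, the authors removed short and low-quality reads, mapped the rest to the K326 genome with Tophat2 (the labels list HISAT2 and StringTie) and quantified genes with RSEM, all without versions, and they deposited FPKM rounded to 2 decimals. FPKM carry no counts, so the study's DESeq2 test was not run. The depth per library is not in the table, and precision rests on the replicates alone.

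With limma 3.58.1 (R 4.3.3) a mean of log2(FPKM + 1) was fitted per genotype, with its trend and robust options, 10 residual degrees of freedom and no covariate. The 37232 genes that reached 1 FPKM in 3 or more libraries were tested. P-values were two-sided and adjusted over all of them (Benjamini-Hochberg). Permutation tests used SciPy 1.17.1 in Python 3.11.15. The fit was tested on simulated data.

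Named were the 3 genes, 9 other ethylene signalling genes, genes with the same first ID number, and the 5 genes of highest r per ERF1/2 gene, among those with at least 5 FPKM in a genotype (among all tested for Nitab4.5_0010541g0010). EBF1/2, ETR and EIN3 IDs were read by eye from a picture. The genes and lists were chosen with earlier results of these data known. Alternatives were libraries left out, a replicate block, fewer genotypes in the fit, limma without its 2 options, a pseudocount of 0.1, no filter, a filter on a mean of 5 FPKM or more, quantile normalization, scaling by median-of-ratios size factors, calls without the fold limit and calls on unadjusted p. Library pairs correlated with r of 0.915 to 0.983 within genotypes, and 1.09% of values were equal in the closest pair, so none was counted as a duplicate.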

Additional observations from a re-analysis of the deposited data

Results flagged for a closer look

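Nitab4.5_0000734g0020 departed from its middle parent downwards in every GJ library and upwards in every KJ library. The difference between the departures, GJ minus KJ, was -2.54 on the log2 scale (limma adjusted p = 0.0576), short of the threshold. Nitab4.5_0002683g0020 showed the same opposite departures in all 6 hybrid libraries, with a difference of -1.79 (adjusted p = 0.0599). Nitab4.5_0009888g0030 showed them as well, with a difference of -2.17 (adjusted p = 0.123, limma). Opposite departures in this direction were seen in 1.25% of the tested genes, and in the other direction in 4.24%. Both shares are of FPKM without size-factor scaling, and the KJ libraries had the lowest size factors. With median-of-ratios scaling the calls in KJ against its middle parent turned from mostly lower to mostly higher. How far the 2 shares would move was not tested. The 3 genes moved together within genotypes and are not independent of each other.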

How the results depend on the processing

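Depth per gene is unknown, so the limits are those of 3 libraries per genotype and of the scale. The signs of Nitab4.5_0000734g0020 and Nitab4.5_0002683g0020 held under every alternative run. That of Nitab4.5_0010541g0010 turned in GJ against KJ (0.10 without KJ replicate 1) and in the difference of departures (-0.016 with quantile normalization), neither called. The cause of each change below was not tested.

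For GJ against KJ, both paired genes passed limma's test with the p-value left unadjusted (-1.84 and -1.38) and with the 3 libraries of highest size factor left out together, namely G replicate 1, K replicate 2 and J replicate 2 (-1.84 and -1.38), which leaves every GJ and KJ value unchanged. Over the other alternatives that keep every library their limma adjusted p reached 0.134 and 0.125. Against the middle parent of GJ, Nitab4.5_0002683g0020 lost its call with median-of-ratios scaling (-0.94) and quantile normalization (-0.98), and Nitab4.5_0010541g0010 gained one with a pseudocount of 0.1 (1.25), no fold limit (0.81) and the 3 libraries left out (1.02). Against that of KJ, Nitab4.5_0002683g0020 gained a call with median-of-ratios scaling (1.05) and Nitab4.5_0010541g0010 with no fold limit (0.62). The difference of departures was called for Nitab4.5_0000734g0020 with a pseudocount of 0.1 (-2.72), unadjusted p (-2.54) and the 3 libraries left out (-2.63), and for Nitab4.5_0002683g0020 with unadjusted p (-1.79) and the 3 libraries left out (-1.87). With a mean of at least 5 FPKM required, Nitab4.5_0010541g0010 could not be tested.

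Leaving out each library in turn gave -2.12 to -1.36 for Nitab4.5_0000734g0020, -1.66 to -0.97 for Nitab4.5_0002683g0020 and -0.24 to 0.10 for Nitab4.5_0010541g0010 in GJ against KJ, with 0 calls. The ranges were -1.84 to -1.47, -1.18 to -0.91 and 0.71 to 0.95 against the middle parent of GJ, 0.42 to 1.18, 0.36 to 1.05 and 0.44 to 0.78 against that of KJ, and -2.82 to -2.06, -2.07 to -1.38 and 0.02 to 0.37 for the departures.

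Genes called between GJ and KJ were 92 higher and 71 lower in GJ. These became 211 and 91 with a pseudocount of 0.1, 41 and 32 with the mean filter of 5 FPKM, 482 and 490 with unadjusted p, 169 and 97 with no fold limit, 208 and 171 with the 3 libraries left out, 48 and 47 from GJ and KJ alone, 67 and 98 under median-of-ratios scaling, and 43 and 86 after quantile normalization. With 1 library left out they ranged between 17 (without KJ replicate 1) and 222 (without GJ replicate 1) higher, and between 39 and 111 lower for the same libraries. Against the middle parent of GJ the 1697 calls became 2677, 1121 and 7448 with the pseudocount, the mean filter and no fold limit, and 956 (without GJ replicate 1) to 2039 with 1 library left out. For KJ the 4019 calls became 6714, 2491 and 16716, and 3299 to 4513, and their split of 1557 higher and 2462 lower turned to 2448 and 1387 under median-of-ratios scaling and to 2014 and 1353 after quantile normalization. The 189 calls for the departures became 318 with the pseudocount, 107 with the mean filter, 1339 with unadjusted p and 405 with the 3 libraries left out, and 85 (without KJ replicate 1) to 380 (without G replicate 1) with 1 library left out, and their split of 128 higher and 61 lower became 86 and 82 under median-of-ratios scaling and 69 and 88 after quantile normalization.

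Replicate numbers are shared across genotypes, but same-numbered libraries did not deviate together in most pairs, with a correlation over 0.1 in 8 of 30 pairs and 3 of 15 libraries closest to their own number. K and J were an exception, with 0.21, 0.55 and 0.28 for replicates 1, 2 and 3. Across numbers, G replicate 1 correlated with K replicate 2 at 0.58 and with J replicate 2 at 0.60. With the replicate number as a block, GJ against KJ gave -1.84 (adjusted p = 0.111), -1.38 (adjusted p = 0.122) and -0.08 (adjusted p = 0.864), with 76 genes called higher and 66 lower in GJ. The block ended the calls of Nitab4.5_0002683g0020 in GJ against G (adjusted p = 0.0568) and in KJ against K (adjusted p = 0.0522).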
